A study of Mus musculus with 2 samples.

Results

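The genes described here are 8 genes that microglia express in the resting state: *P2ry12*, *Tmem119*, *Cx3cr1*, *Csf1r*, *Siglech*, *Sall1*, *Gpr34*, and *Selplg*. They were taken by symbol from the 32285 genes counted in single-cell RNA-seq of mouse retina, and all 8 were found. Levels are those in cells that carry the complement transcripts *C1qa*, *C1qb*, and *C1qc*. Such cells held at least 3 unique molecular identifiers (UMIs, each marking 1 captured transcript) of these genes, amounting to at least 0.2% of the cell's UMIs. None of the 8 genes was used to choose the cells. The study examined how a mutation of complex I in mitochondrial DNA (mtDNA) affects the cells of the retina. One group was WT and the other, called ND6 here, carried the mtDNA change 13997G>A in the *ND6* gene. Both were male C57BL/6J mice aged 7 months, and the labels name no treatment. The mutation was homoplasmic in the whole body and not restricted to a cell type, and mutant mice were bred from mutant females and WT males. Each group was 1 library, and the number of animals behind a library was not given in the sources used here. Hence no test between the groups was possible, and every interval below is a 95% interval that covers counting error only.

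Microglia are the resident macrophages of the retina and the brain. In undisturbed tissue they survey their surroundings with fine processes, and a set of surface receptors and transcription factors marks this state. These transcripts are commonly reduced when microglia become activated, and most are low or missing in macrophages of vessels and meninges. *P2ry12* encodes a purinergic receptor that senses ADP and guides process movement. *Cx3cr1* encodes the receptor for fractalkine, a chemokine made by neurons. *Csf1r* encodes the receptor for CSF1 and IL-34, on which microglia depend for survival. *Gpr34* encodes a receptor for lysophosphatidylserine. *Tmem119* encodes a membrane protein used as a microglial marker, *Siglech* a sialic acid-binding lectin that signals through the adaptor encoded by *Tyrobp*, and *Selplg* the ligand of P-selectin. *Sall1* encodes a zinc finger transcription factor that maintains microglial identity.

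In the annotation of genome build GRCm38 (GENCODE M21), *P2ry12* lies on chromosome 3 at 59216272 to 59262871, *Cx3cr1* on chromosome 9 at 119901616 to 120069879, and *Sall1* on chromosome 8 at 89027235 to 89044162, all on the minus strand. *Tmem119* (113793729 to 113800516) and *Selplg* (113818536 to 113832644) are neighbors on the minus strand of chromosome 5. *Siglech* lies on chromosome 7 at 55768178 to 55778925 and *Gpr34* on chromosome X at 13632089 to 13640858, both on the plus strand. *P2ry12* lies within *Med12l* and *Gpr34* within *Cask*, each on the other strand. In C1q-positive cells *Med12l* stood at 23.2 CPM (WT) and 39.2 CPM (ND6), and *Cask* at 54.6 and 63.6 CPM. Promoter sequences of RefSeq (GRCm38.p6) were at hand for 4 of the 8 genes. Because the 8 genes were high in the same cells, those of *P2ry12*, *Siglech*, and *Sall1* are shown from 250 to 11 bases before the start site, 5′ to 3′ on the strand of the gene. The first of 3 *Sall1* start sites is given. The window of *Cx3cr1* overlapped an annotated exon of the gene and is not shown. Capitals mark GGAA or its reverse complement TTCC, the core that ETS family factors such as PU.1 bind.
P2ry12, chr3:59262996-59263235, minus strand: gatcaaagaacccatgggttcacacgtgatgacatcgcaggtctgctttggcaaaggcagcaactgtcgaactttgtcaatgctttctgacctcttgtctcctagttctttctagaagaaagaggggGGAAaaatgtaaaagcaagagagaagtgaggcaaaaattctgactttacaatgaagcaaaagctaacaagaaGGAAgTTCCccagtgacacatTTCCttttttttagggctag
Siglech, chr7:55767934-55768173, plus strand: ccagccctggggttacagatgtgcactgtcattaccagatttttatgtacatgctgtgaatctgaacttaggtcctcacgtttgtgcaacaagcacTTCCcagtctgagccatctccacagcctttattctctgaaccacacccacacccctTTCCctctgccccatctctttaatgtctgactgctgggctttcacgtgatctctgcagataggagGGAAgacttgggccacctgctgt
Sall1, chr8:89044173-89044412, minus strand: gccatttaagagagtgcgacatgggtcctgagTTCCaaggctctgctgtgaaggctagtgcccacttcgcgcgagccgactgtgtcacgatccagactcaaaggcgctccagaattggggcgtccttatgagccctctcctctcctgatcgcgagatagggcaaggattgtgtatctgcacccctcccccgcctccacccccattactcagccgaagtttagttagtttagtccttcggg
The *P2ry12* window held 4 matches, that of *Siglech* 3, and that of *Sall1* 1, while 92.7% of all 32851 RefSeq promoter windows of 240 bases held at least 1 and the median was 3. The longer form GAGGAA, searched on both strands, was in none of these 3 windows, nor in that of *Cx3cr1*, against 22.3% of all windows. These are matches of letters only.

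The WT library held 77958836 UMIs and the ND6 library 80358255. After the study's limits of over 400 UMIs, over 200 genes, and at most 20% mtDNA UMIs per barcode, 12529 WT and 18395 ND6 cells remained, with medians of 1878 and 1416 UMIs. The paper reported more cells than these and showed cell fractions per mouse, so the libraries used here may be only a part of its data. The libraries shared 59 cell barcodes. Of the 12529 WT and 18395 ND6 cells, 164 WT cells (1.31%, 1.12 to 1.52) and 97 ND6 cells (0.527%, 0.428 to 0.643) were C1q-positive. They had medians of 1584.5 and 1137 UMIs and summed to 604721 and 204245 UMIs. By the rule these cells are microglia or macrophages, a name checked against other markers. All 12 genes of a pan-macrophage list were detected, *Tyrobp* at 1935 and 2541 in WT and ND6 as CPM, UMIs of a gene per 1000000 UMIs of the cells. Of 10 monocyte and neutrophil genes 7 were at 0 in the C1q-positive cells of both libraries, as were 7 of 8 T and B cell genes. The lysozyme gene *Lyz2*, at 458 and 876 CPM, made up nearly all of the monocyte list. UMIs of the 10-gene rod list made up 2.62% of UMIs in WT and 1.96% in ND6 C1q-positive cells. A median of 10.4% of UMIs was mtDNA-encoded in WT and 4.80% in ND6 cells. The part of this difference in the results below was not tested.

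Each of the 8 genes was concentrated in C1q-positive cells of both libraries. *Cx3cr1*, *Csf1r*, and *Selplg* were the most abundant, and *Sall1* the least. In WT C1q-positive cells the levels ran from *Cx3cr1* (1290 CPM, 1201 to 1384) and *Csf1r* (1283, 1195 to 1377) through *Selplg* (997, 919 to 1080) to *P2ry12* (653, 590 to 721), *Tmem119* (645, 582 to 712), *Gpr34* (625, 564 to 691), and *Siglech* (615, 554 to 681). *Sall1* followed at 132 CPM (105 to 165). Each transcript counts once near its 3′ end, so these levels were not divided by gene length. *Cx3cr1* and *Csf1r* did not differ beyond their counting intervals, nor did *P2ry12*, *Tmem119*, *Gpr34*, and *Siglech*, while *Selplg* stood between these groups. In ND6 cells *Csf1r* (1934 CPM, 1748 to 2134) and *Cx3cr1* (1919, 1734 to 2119) again led, followed by *Selplg* (1234, 1086 to 1396), *Siglech* (969, 839 to 1114), *Gpr34* (759, 644 to 888), *P2ry12* (754, 640 to 883), *Tmem119* (651, 545 to 772), and *Sall1* (289, 220 to 373). *Siglech* was seventh of the 8 in WT and the fourth in ND6. Together the 8 genes gave 3774 UMIs in WT and 1738 in ND6, or 6241 CPM (6043 to 6443) and 8509 CPM (8114 to 8919).

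**Figure D1:**
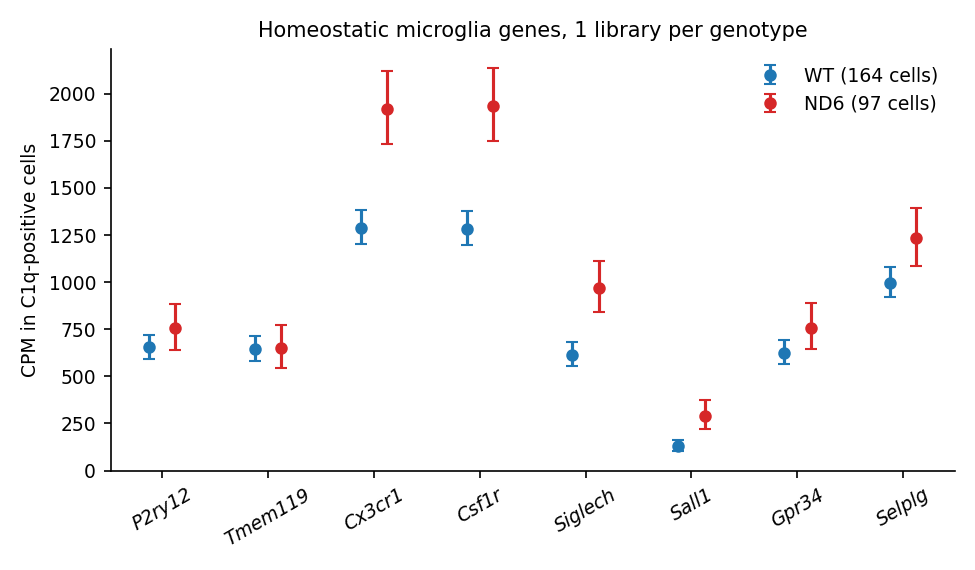
Level of each gene in C1q-positive cells, in CPM of their summed UMIs, for the WT library (164 cells) and the ND6 library (97 cells), with exact Poisson 95% intervals. The intervals of *Cx3cr1*, *Csf1r*, *Siglech*, *Sall1*, and *Selplg* do not overlap between the libraries, while *Tmem119* is at 645 and 651 CPM.

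In all other cells of the WT library the 8 genes together reached 5.84 CPM, and in ND6 4.73 CPM. C1q-positive cells thus exceeded the other cells 1068-fold in WT and 1798-fold in ND6. Of all UMIs of these genes in cells, 92.3% in WT and 85.4% in ND6 lay in C1q-positive cells. All 8 genes were over 10-fold higher in C1q-positive than in other cells in each library, against 6.59% of 14330 genes in WT and 6.01% of 14900 genes in ND6. In WT, *Sall1* had the largest fold of the 8 (7133-fold, with only 1 UMI in other cells) and the sixth largest of the ranked genes. *Csf1r* had the smallest fold in WT (391-fold) and in ND6 (837-fold), where it ranked 220 and 112. Rods should lack these genes, and UMIs of them there can come from free RNA or from droplets that held more than 1 cell. The part of each was not tested. A UMI of any of the 8 genes was in 1.20% of 11222 WT rods and 0.884% of 15721 ND6 rods, at medians of 1782 and 1382 UMIs. In C1q-positive cells this share was 80.5% in WT and 84.5% in ND6. Barcodes of 10 to 100 UMIs, 7324 in WT and 8621 in ND6, held the 8 genes at 57.5 CPM (30.6 to 98.3) in WT and 25.7 CPM (12.3 to 47.2) in ND6. These levels were above those of the other cells. Whether these barcodes were empty droplets was not tested.

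Outside C1q-positive cells, *Csf1r* was also found in cells of the retinal pigment epithelium (RPE), the pigmented layer behind the photoreceptors. RPE cells were those with at least 3 UMIs, and 0.5% of their UMIs, from a list of RPE genes and no other class. In the 223 WT RPE cells *Csf1r* reached 74.5 CPM (59.7 to 91.9), with a UMI in 24.7% of cells. In the 828 ND6 RPE cells it reached 55.1 CPM (43.3 to 69.1), with a UMI in 7.73% of cells. The median depth was 3174 UMIs in WT and 1105.5 in ND6, and the shares of cells were not compared for this reason. WT rods stood at 1.34 CPM and ND6 rods at 1.05. Cells not assigned to any class also held *Csf1r*, at 32.2 CPM (20.6 to 47.8) in 130 WT cells and 12.6 CPM (6.91 to 21.2) in 333 ND6 cells. The other 7 genes together gave 1 UMI in WT RPE cells and 5 UMIs in ND6 RPE cells. The 55 WT and 64 ND6 RPE cells with *Csf1r* held 0 UMIs of the C1q genes and 1 UMI in each library of *Tyrobp*, *Fcer1g*, *Laptm5*, and *Cd53* together. The 3′ end of *Csf1r* overlaps that of *Hmgxb3* on the other strand, and whether reads were counted by strand was not given in the sources used here. *Hmgxb3* stood at 7.71 CPM (3.52 to 14.6) in WT and 15.4 CPM (9.55 to 23.6) in ND6 RPE cells, compared with 16.3 and 18.3 CPM in rods. RPE genes made up 9.56% and 7.64% of the UMIs in these cells. *Csf1r* accounted for 56.2% of the 315 UMIs of the 8 genes outside C1q-positive cells in WT and for 48.8% of 297 in ND6.

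**Figure D2:**
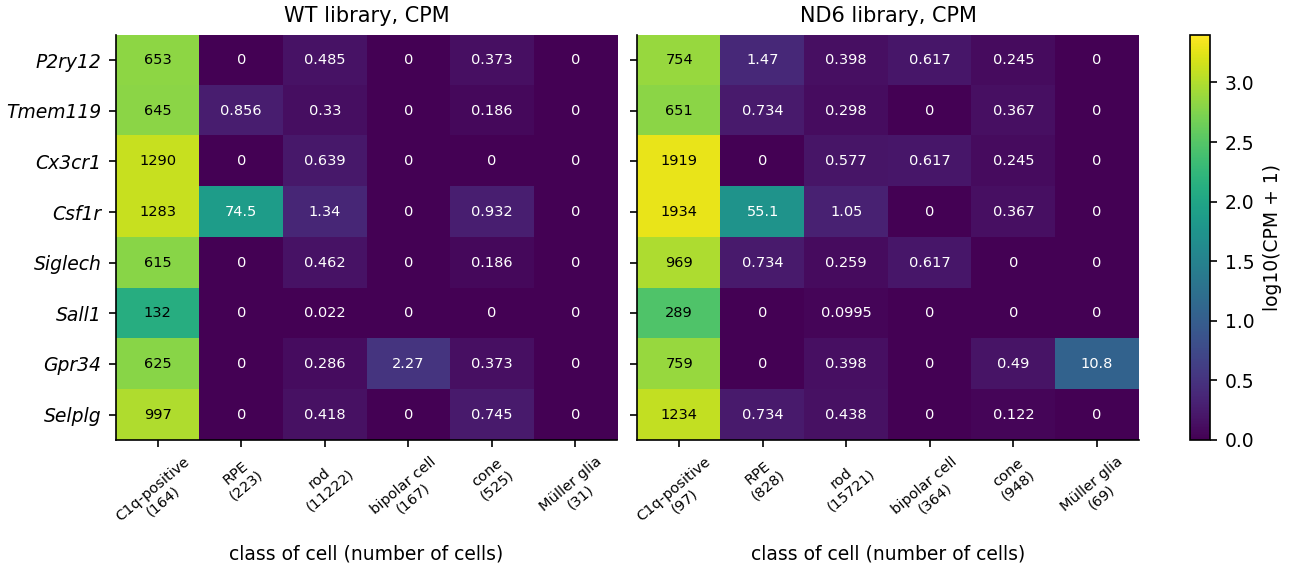
Level of each gene by class of cell in the WT library (left) and the ND6 library (right), printed as CPM and colored by log10(CPM + 1), with the number of cells in each class. C1q-positive cells are high for every gene. *Csf1r* alone stands out in RPE cells (74.5 and 55.1 CPM), and the 10.8 CPM of *Gpr34* in ND6 Müller glia is 1 UMI.

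Between the libraries, the 8 genes together were 1.36-fold higher per UMI in ND6 than in WT C1q-positive cells (1.29 to 1.44). The difference was uneven among the genes. *Sall1* differed most, at 80 UMIs in WT and 59 in ND6, or 2.18-fold (1.53 to 3.10) higher in ND6. *Siglech* was 1.58-fold (1.32 to 1.88), *Csf1r* 1.51-fold (1.33 to 1.70), and *Cx3cr1* 1.49-fold (1.31 to 1.68) higher in ND6. *Selplg* was 1.24-fold higher (1.06 to 1.44), and *Gpr34* 1.21-fold (1.00 to 1.47), with an interval that began just above equality and included it under 10 of 13 alternatives that give an interval. *P2ry12* (1.15-fold, 0.952 to 1.39) and *Tmem119* (1.01-fold, 0.823 to 1.23) did not differ beyond counting error. *Tmem119* was lower in ND6 under 8 of 14 alternatives, from −0.14 to 0.56 on the log2 scale. Of the 8 genes, 1 (*Sall1*) was at least 2-fold higher in ND6, against 5.94% of the 5627 genes with at least 20 UMIs in these cells. None was at least 2-fold lower, against 10.5% of genes. The median log2 ratio of the 8 genes was 0.44, with 8 higher and 0 lower, and that of all 5627 genes was −0.019, with 2711 higher and 2916 lower. When the libraries were instead scaled by the median of gene ratios, the median of all genes moved to −0.143. This scaling lowers every gene alike, and *Tmem119* was then lower in ND6. Under 6 settings that choose, weight, or thin the cells differently, 7 of the 8 genes were above the median of all genes and 1 was below. With 1 library per group, the spread between animals is unknown, and a difference of this size may lie within it.

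The same UMIs can be given as shares of the 8-gene total, which adds no separate evidence. *Tmem119* made up 10.3% (9.38 to 11.3) of the UMIs of the 8 genes in WT and 7.65% (6.45 to 9.0) in ND6. *P2ry12* made up 10.5% (9.51 to 11.5) and 8.86% (7.57 to 10.3). *Sall1* went from 2.12% (1.68 to 2.63) in WT to 3.39% (2.59 to 4.36) in ND6. The intervals of *P2ry12* and *Sall1* overlapped between the libraries. *Cx3cr1* (20.7% and 22.6%) and *Csf1r* (20.6% and 22.7%) kept the largest shares. *C1qa*, *C1qb*, and *C1qc* together made up 1.24% of UMIs in WT and 2.09% in ND6 C1q-positive cells. These 3 genes chose the cells, so their level there is no finding.

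**Figure D3:**
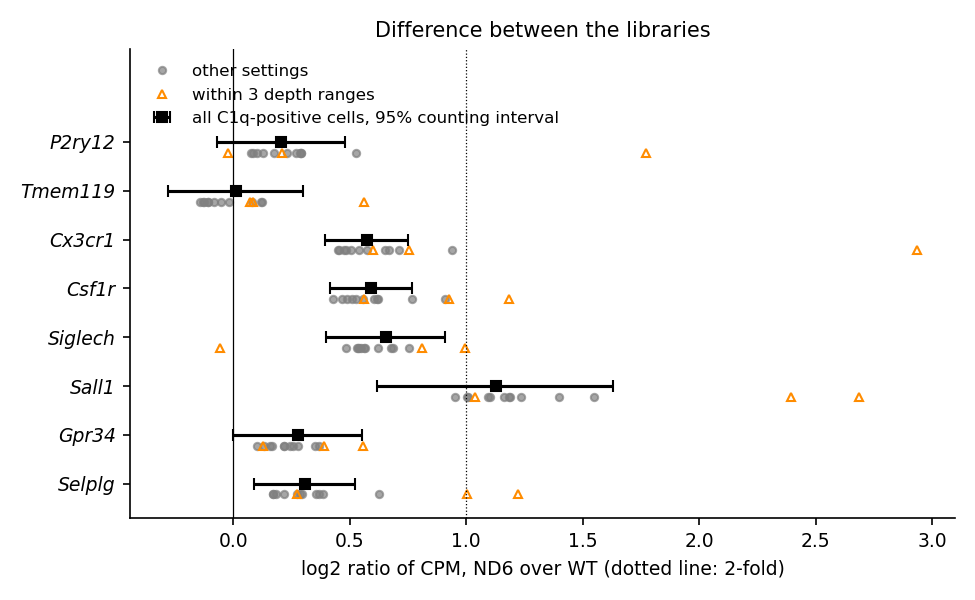
Log2 ratio of CPM in C1q-positive cells, ND6 over WT, for each gene. Black squares with bars are all C1q-positive cells with exact conditional 95% intervals, gray circles the other settings of the processing, and orange triangles the cells within 3 ranges of depth. *Sall1* lies at 1.13 (0.62 to 1.63) and *Tmem119* at 0.01 (−0.28 to 0.30), and the triangles spread up to 2.93 for *Cx3cr1*.

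Over whole libraries the order of the groups was the opposite. Among all cells the 8 genes reached 75 CPM in WT and 32.3 CPM in ND6, a log2 ratio of −1.21 (−1.29 to −1.14). Each gene was lower in ND6 on this scale, from *Sall1* at −0.55 (−1.04 to −0.06) to *Tmem119* at −1.63 (−1.91 to −1.36). The share of C1q-positive cells was lower by a similar amount, at a log2 ratio of −1.31 (−1.69 to −0.94). C1q-positive barcodes above the mtDNA limit, 95 in WT and 16 in ND6, held the 8 genes at 1489 CPM (1258 to 1750) and 1006 CPM (575 to 1633). They made up 36.7% of all C1q-positive barcodes in WT and 14.2% in ND6.

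The difference was larger in cells of middle depth than in the deepest cells. In cells over 3000 UMIs, 57 in WT and 25 in ND6, the 8 genes reached 7256 CPM and 10073 CPM, a log2 ratio of 0.47 (0.38 to 0.57). In these deep cells *Csf1r* was detected in 98.2% of WT and 100% of ND6 cells, *Cx3cr1* in 91.2% and 88.0%, *P2ry12* in 80.7% and 92.0%, and *Tmem119* in 78.9% and 84.0%. In cells of over 1000 and up to 3000 UMIs (57 WT, 27 ND6) the levels were 2455 and 6227 CPM, a log2 ratio of 1.34 (1.09 to 1.60). There *Cx3cr1* gave 16 UMIs in WT and 57 in ND6, a log2 ratio of 2.93 (2.12 to 3.83), and *P2ry12* 17 and 27 UMIs, a ratio of 1.77 (0.84 to 2.74). In this middle range 71.9% of WT and 88.9% of ND6 cells held a UMI of any of the 8 genes. In cells over 3000 UMIs this share was 100% in both libraries. The part of cells without such a UMI in these ratios was not tested. In the shallowest cells (50 WT, 45 ND6) the levels were 3098 and 4755 CPM, at 0.62 (0.24 to 0.99). There the interval lay above 0 for *Csf1r* (0.93, 0.21 to 1.66) and *Selplg* (1.00, 0.12 to 1.92) and included 0 for the other 6 genes, such as *P2ry12* (−0.02, −1.45 to 1.35) and *Siglech* (−0.06, −1.32 to 1.16). These depth ranges were chosen after the data were seen.

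Several of the 8 genes were commonly detected in the same cell. Cells with at least 1000 UMIs, 114 in WT and 52 in ND6, were each thinned to 1000 UMIs, which left out 50 WT and 45 ND6 cells. At this depth 59 WT cells (51.8%, 42.2 to 61.2) and 30 ND6 cells (57.7%, 43.2 to 71.3) held at least 3 of the 8 genes. No gene of the 8 was detected in 22 WT cells (19.3%, 12.5 to 27.7) and 4 ND6 cells (7.69%, 2.14 to 18.5). Of the 36 WT cells with *P2ry12*, 35 held at least 2 others of the 8 genes, compared with 44.9% of the 78 cells without it. Of the 71 WT cells with *Csf1r*, the most widely detected gene, 71.8% held at least 2 others, compared with 32.6% of the 43 cells without it. In ND6 cells the contrast was smaller for 7 of the 8 genes, at 91.3% with and 69.0% without *P2ry12*, 83.3% and 75% for *Sall1*, and 80.8% and 73.1% for *Siglech*, but not for *Csf1r* (73.2% and 27.3%). *Csf1r* was detected in 62.3% of thinned WT and 78.8% of thinned ND6 cells, against 62.2% and 70.1% of cells without thinning. *Sall1* was detected in 7 WT and 12 ND6 thinned cells (6.14% and 23.1%), against 25.6% and 33% without thinning. For the 6 others, the thinned shares ran from 28.1% (*Tmem119*) to 41.2% (*Selplg*) in WT and from 32.7% (*Tmem119*) to 53.8% (*Selplg*) in ND6.

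**Figure D4:**
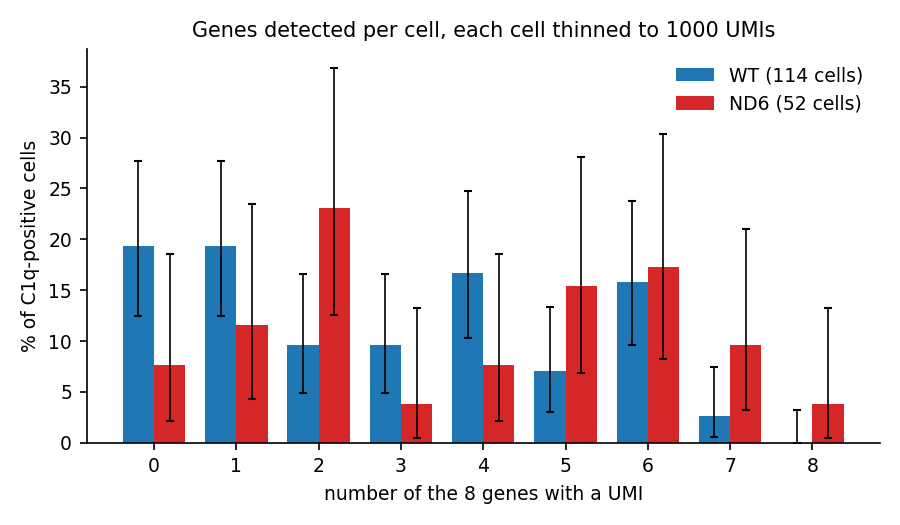
Share of C1q-positive cells by the number of the 8 genes with a UMI, each cell thinned to 1000 UMIs, for 114 WT and 52 ND6 cells, with Clopper-Pearson 95% intervals. Cells without any of the 8 genes make up 19.3% in WT and 7.69% in ND6, and 15.8% and 17.3% of cells hold 6 of them.

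The C1q-positive cells that lacked the 8 genes at 1000 UMIs also held less of other macrophage transcripts and more of rod transcripts. In the 22 WT cells without any of the 8 genes, the 12 pan-macrophage genes stood at 4814 CPM. In the 59 WT cells with at least 3 genes this level was 13822 CPM. A median of 7.83% of UMIs came from the rod list in the former and 0.42% in the latter. C1q UMIs made up 0.39% and 1.46%, and the median depth before thinning was 1584.5 and 6684 UMIs. The 4 ND6 cells without any of the genes had a median rod share of 8.09%, compared with 0.36% in the 30 ND6 cells with at least 3. Altogether 44 WT and 23 ND6 C1q-positive cells met the rule of another class or drew at least 5% of their UMIs from the rod list. Without them the log2 ratio of the 8-gene total was 0.36, against 0.45 with them.

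Few C1q-positive cells held at least 2 UMIs of genes that mark border macrophages, those of vessels and meninges. Border macrophage genes such as *Pf4*, *F13a1*, and *Mrc1* were counted in a 10-gene list. Of these, 2 (*Lyve1* and *Cd209f*) were at 0 in the C1q-positive cells of both libraries. Over all cells *Lyve1* gave 55 UMIs in WT and 150 in ND6. In C1q-positive cells 4 genes of the list were at 0 in WT and 3 in ND6. At least 2 UMIs of the list were found in 15 WT and 4 ND6 cells, of which 11 and 3 carried *Stab1*. The 15 WT cells held *P2ry12* at 725 CPM, *Tmem119* at 757 CPM, and all 8 genes at 6496 CPM, compared with 640, 624, and 6193 CPM in the other 149. The 4 ND6 cells held the 8 genes at 9896 CPM, compared with 8409 CPM in the other 93. By the full list, these cells thus did not hold less of the 8 genes, but depth was not matched. Their median depth was 6261 UMIs in WT and 3742 in ND6, compared with 1548 and 1092 in the others. C1q-positive cells over 3000 UMIs held the 8 genes at 7256 CPM in WT and 10073 CPM in ND6. Whether the 15 and 4 cells differ from others of like depth was not tested. When *Stab1* was left out, a choice made after its values were seen, 8 WT and 2 ND6 cells remained. In those 8 WT cells, which held 19188 UMIs, *P2ry12*, *Tmem119*, and *Sall1* were at 0 UMIs, which allows up to 156 CPM. The remaining 156 WT C1q-positive cells held *P2ry12* at 675 CPM and *Tmem119* at 666 CPM. *Sall1* stood there at 137 CPM, under what the count of 0 allows, so no difference of *Sall1* was detectable. *Csf1r* (20 UMIs, 1042 CPM, 637 to 1610) and *Cx3cr1* (16 UMIs in 3 cells, 834 CPM, 477 to 1354) were present in the 8 cells. *Pf4* reached 3596 CPM, the lipid carrier gene *Apoe* 45549 CPM, and the MHC class II chain gene *Cd74* 14749 CPM, compared with 509 CPM for *Apoe* and 227 CPM for *Cd74* in the other WT cells. The 2 ND6 cells held 6 UMIs of the 8 genes among 3895. *Pf4* was among the genes that chose the cells, so its level there is no finding. The 8 and 2 cells are too few to compare the groups. *Cd74* was named after its values were seen.

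Other genes of the resting state were compared by a list of 20. The median log2 ratio was 0.22, and 17 genes had a higher level in ND6 and 3 a lower one. For most of the 20 genes the counting interval included 0. The cystatin gene *Cst3*, the most abundant, stood at 28663 CPM in WT and 30571 CPM in ND6 (0.09, 0.05 to 0.13). The cathepsin gene *Ctss* stood at 3894 and 4735 CPM (0.28, 0.17 to 0.39). The median of the 12 pan-macrophage genes was 0.60, with 11 above 0 and 1 below, *Fcer1g* among them (1424 and 2184 CPM). The summed pan-macrophage list differed by 0.46 (0.40 to 0.52) and the summed 8 genes by 0.45 (0.36 to 0.53). These intervals overlap over most of their length.

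Genes of activated microglia gave a mixed picture. Of 19 disease-associated microglia genes 11 had at least 20 UMIs, 9 of them above and 2 below the WT level, at a median log2 ratio of 0.47. *Apoe* was 1938 CPM in WT and 6943 CPM in ND6 (1.84, 1.73 to 1.95), and outside the cells with border macrophage genes it was detected in 29 of 156 WT cells (509 CPM) and 25 of 95 ND6 cells (6274 CPM). Most *Apoe* UMIs lay in other retinal cells, with 1172 of 21085 in C1q-positive cells in WT and 1418 of 20171 in ND6, and RPE and Müller glia transcripts within C1q-positive cells were also higher in ND6, as given below. Thinned ND6 cells with 1 or 2 of the 8 genes held *Apoe* at 14712 CPM and RPE genes at 3470 CPM. In WT cells with 1 or 2 genes these levels were 5802 and 130 CPM. In thinned cells with at least 3 of the 8 genes, *Apoe* stood at 28.4 CPM in WT and 4737 CPM in ND6. RPE genes stood there at 74.8 and 46.6 CPM. These levels depended on the thinning. When all 164 WT and 97 ND6 cells were grouped by all their UMIs, those with at least 3 genes held *Apoe* at 1276 and 7379 CPM. RPE genes stood in them at 91.2 and 911 CPM. The part of such transcripts in the *Apoe* level was not tested. The protease gene *Ctsd* stood at 3534 and 4867 CPM (0.46, 0.35 to 0.57). Inflammatory cytokine genes were mostly lower in ND6, at a median of −1.24 and with 10 of 12 below 0. The chemokine gene *Ccl4* was 3471 CPM in WT and 1342 CPM in ND6 (−1.37, −1.56 to −1.19), *Ccl3* 1898 and 1684 CPM (−0.17, −0.35 to 0.00), and *Nfkbiz*, an inducible regulator of NF-kB targets, 961 and 289 CPM (−1.73, −2.15 to −1.35). Immediate early and dissociation genes, which tissue digestion can induce, had a median of −0.93, with 18 of 20 below the WT level. *Jun* stood at 4286 and 3559 CPM (−0.27, −0.39 to −0.15), *Egr1* at 3322 and 1909 CPM (−0.80, −0.96 to −0.64), and *Jund* at 3433 and 1415 CPM (−1.28, −1.46 to −1.10). The 7 antigen presentation genes were split, 3 above and 4 below the WT level (median −0.06), with *B2m* at 2036 and 1699 CPM. The part of digestion in the levels of the 8 genes was not tested.

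**Figure D5:**
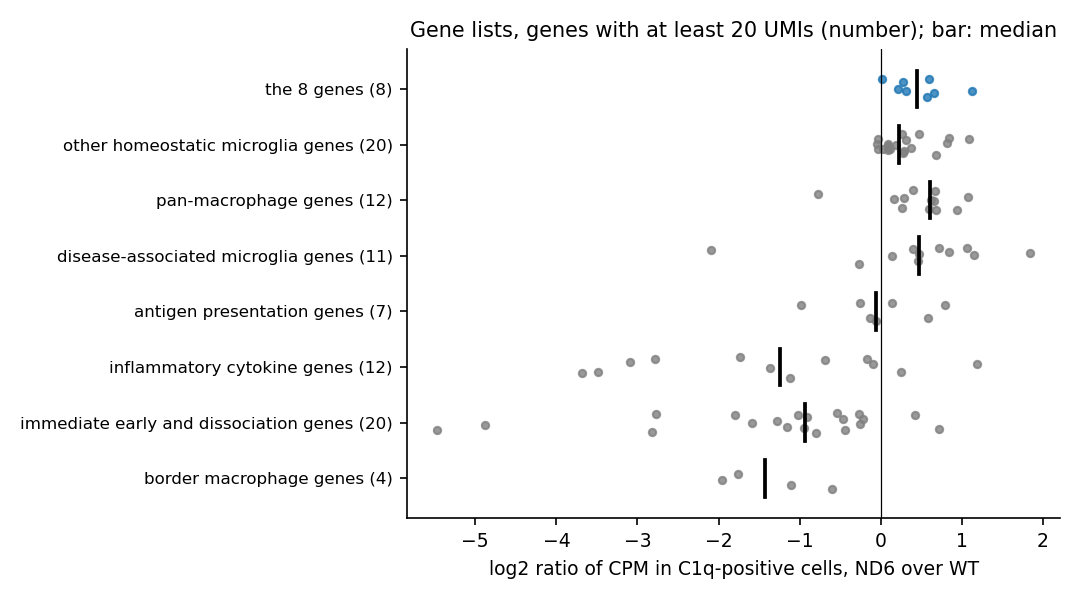
Log2 ratio of CPM in C1q-positive cells, ND6 over WT, for each gene with at least 20 UMIs in 8 lists, with the number of such genes in parentheses and the median as a bar. The 8 genes described here have a median of 0.44, the cytokine genes −1.24, and the immediate early and dissociation genes −0.93.

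Transcripts of other retinal cells within the C1q-positive cells differed between the libraries too. The 10 rod genes were lower in ND6 for 9 and higher for 1, with the transducin subunit gene *Gngt1* at 5126 CPM in WT and 2962 CPM in ND6. RPE genes gave 117 CPM in WT and 867 CPM in ND6, *Ttr* 66.1 and 597 CPM among them. This was uneven among the thinned cells. RPE genes stood at 130 CPM in WT and 3470 CPM in ND6 cells with 1 or 2 of the 8 genes. They stood at 138 and 171 CPM in cells with none, and at 74.8 and 46.6 CPM in cells with at least 3. The pattern changed when all C1q-positive cells were grouped by all their UMIs. RPE genes then stood at 241 CPM in WT and 289 CPM in ND6 cells with 1 or 2 genes. In cells with none they stood at 179 and 1665 CPM, and in cells with at least 3 at 91.2 and 911 CPM. Müller glia genes gave 116 and 294 CPM, cone genes 747 and 573 CPM, bipolar cell genes 122 and 103 CPM, and amacrine cell genes 14.9 and 118 CPM. Endothelial and pericyte genes gave 4 UMIs in WT and 3 in ND6, and red blood cell genes 7 and 3. The part of these transcripts in the difference of the 8 genes was not tested.

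Ligands and partners of the receptors were measured over all cells and in C1q-positive cells. *Cx3cl1*, which encodes fractalkine, the ligand of CX3CR1, gave 97 UMIs in WT (1.78 CPM) and 266 in ND6 (4.23 CPM), a log2 ratio of 1.25 (0.91 to 1.60). *Il34*, a ligand of CSF1R made by neurons, gave 2 and 16 UMIs, and *Csf1*, the other ligand, 50 and 24. Of the *Csf1* UMIs, 38 in WT and 3 in ND6 lay in C1q-positive cells, at 62.8 and 14.7 CPM (−2.10, −4.44 to −0.44). TGF-beta is required for microglial identity. *Tgfb2* was the most abundant of its genes, at 16.0 and 22.9 CPM over all cells (0.52, 0.40 to 0.64), and *Tgfb3* stood at 0.94 and 1.41 CPM. *Tgfb1* was mainly in C1q-positive cells, with 100 of 108 UMIs in WT and 35 of 55 in ND6, at 165 and 171 CPM. *Entpd1*, whose ectoenzyme breaks down ATP and ADP, the agonist of P2RY12, stood at 142 and 162 CPM in C1q-positive cells (0.18, −0.44 to 0.78). *Nt5e*, whose enzyme turns AMP to adenosine, was found mainly in other cells, at 170 and 140 CPM over all cells. The selectin genes *Selp* and *Sele*, whose products bind the *Selplg* product, were at 0 in both libraries. The endothelial and pericyte class held only 1 WT and 2 ND6 cells, so selectin levels in vessel cells could not be measured. Of the transcription factor genes, *Spi1*, which encodes PU.1, stood at 202 and 250 CPM in C1q-positive cells (0.31, −0.19 to 0.79), *Runx1* at 205 and 157 CPM (−0.39, −1.0 to 0.18), and *Smad3*, a mediator of TGF-beta, at 13.2 and 39.2 CPM from 8 UMIs in each (1.57, −0.05 to 3.18).

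Across cells, genes whose levels followed the 8-gene total closely were taken by Pearson correlation of log-scaled levels across the 114 WT C1q-positive cells with at least 1000 UMIs, over 5524 genes. Among them were *Cd9* (r = 0.75 in WT and 0.75 in the 52 ND6 cells), *Marcks* (0.75 and 0.80), *Lgmn* (0.74 and 0.76), *Rhob* (0.70 and 0.66), *Kctd12* (0.70 and 0.65), *Junb* (0.68 and 0.63), *Serinc3* (0.68 and 0.79), and *Jun* (0.67 and 0.56). All cells of a genotype share 1 library, and the 8-gene total itself followed the log of depth (r = 0.50 in WT and 0.48 in ND6), so these correlations are descriptions. *Marcks*, *Lgmn*, *Cd9*, and *Kctd12* were higher in ND6, by 0.72, 0.78, 0.47, and 0.37 on the log2 scale. The immediate early genes *Junb* and *Jun* were lower, at −0.25 and −0.27, while *Rhob* (0.03) and *Serinc3* (−0.10) did not differ beyond counting error.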

How the data were processed

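Retinas of 1 WT and 1 ND6 group were digested to single cells with papain and a further enzyme and profiled by 10x Genomics 3′ chemistry. The authors aligned reads to mm10 with Cell Ranger 3.0.2 and deposited raw UMI counts per gene and barcode, without normalization. From the deposited counts, barcodes with over 400 UMIs, over 200 genes, and at most 20% mtDNA UMIs were kept. UMIs were summed over the C1q-positive cells of each library and divided by their total (CPM). Intervals were exact Poisson (levels), Clopper-Pearson (shares), and exact conditional binomial (ratios), each at 95%. Their formulas were checked on counts simulated with Poisson and binomial error. These counts leave out the clustering of UMIs within cells, so the check cannot show that the intervals cover it. A count of 0 was taken to allow 3 counts. Thinning drew 1000 UMIs per cell without replacement. Other classes were named from marker lists, and no doublet caller was run, so doublets remained. Python 3.11.15, numpy 2.4.6, and scipy 1.17.1 were used. The genes and lists were chosen with earlier results of these data known. Named were all 8 genes, the 3 genes with most UMIs of each other list (lists of low counts are given as sums), all ligands and partners, and the 10 genes that best followed the 8-gene total. The 13997G>A label was not checked, since UMI counts do not read the mutated base. The disease-associated gene *Clec7a* was not analysed here, and some genes that the naming rule picks are not reported here. Alternatives changed the mtDNA limit, the C1q rule, the genes that choose cells, cell weights, scaling, depth, and the cells left out.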

Additional observations from a re-analysis of the deposited data

How the results depend on the processing

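Over 8 genes and 14 alternatives, 102 of the 112 log2 ratios were above 0 and 95 lay inside the counting interval of the reported value. *Cx3cr1*, *Csf1r*, *Sall1*, *Gpr34*, and *Selplg* were above 0 in all 14, and *Tmem119* was below 0 in 8. For the 13 alternatives with an interval, it included 0 in 13 for *Tmem119*, 10 each for *P2ry12* and *Gpr34*, 5 for *Selplg*, 2 for *Siglech*, 1 each for *Cx3cr1* and *Sall1*, and 0 for *Csf1r*. *Siglech* changed sign, to −0.055, in cells of up to 1000 UMIs. The summed log2 ratio, 0.45, was 0.33 with at least 10 C1q UMIs making up 0.5%, 0.35 with cells chosen by *Tyrobp*, *Fcer1g*, *Laptm5*, and *Cd53*, 0.36 without cells of mixed markers, 0.56 after thinning, 0.54 with equal cell weights, and 0.32 with median-of-ratios scaling. By depth it was 0.62 in the shallowest cells and 1.34 in the middle range, where the median over genes was 1.20. No gene passed 2-fold under the stricter C1q rule, where *Sall1* stood at 0.95. The cause of these shifts was not tested. The log2 fold of the 8 genes over other cells, 10.1 in WT, was 9.80 with the stricter rule, 9.61 with the 4 other immune genes, 9.67 without mixed cells, and 9.79 without the mtDNA limit. In ND6, 10.8, it was 10.6 with the 4 genes, 10.6 without mixed cells, 10.6 without the limit, and 11.1 at 1000 UMIs or more. The C1q-positive share was 0.862%, 0.958%, and 1.04% in WT and 0.364%, 0.402%, and 0.365% in ND6 with the stricter rule, without mixed cells, and at 1000 UMIs or more. Its log2 ratio ran from −1.51 to −1.14. No paired analysis was possible because each group had 1 library. Depth limits the rarest gene, *Sall1*, and the comparison of shallow cells.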
